A study of Caenorhabditis elegans with 18 samples.

Results

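Vitellogenins are the yolk lipoproteins of Caenorhabditis elegans, and 6 genes encode them, vit-1 to vit-6. All 6 were taken by their sequence names. They are 6 of the 20505 gene models counted in each library, and all 6 passed the filter on low counts that left 15110 genes to test. The data are read counts from polyA RNA of whole worms collected at L4, the last larval stage.

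The 18 libraries form 6 groups of 3. They were met-2(ok2307) mutants on cco-1 RNAi and on empty vector (EV), lin-65(n3441) mutants on cco-1 RNAi and on EV, and the N2 laboratory wild type on cco-1 RNAi and on EV. Worms of every group were raised from hatching at 20 °C on the bacteria that carried the RNAi or the vector. The gene met-2 encodes a histone H3 lysine methyltransferase and lin-65 a nuclear protein that acts with it. The gene knocked down, cco-1 (cox-5B in the annotation), encodes a subunit of cytochrome c oxidase in the mitochondrial respiratory chain. The alleles and the RNAi act in the whole animal, so the tissue in which either matters was not separated. Nothing in the labels says that the libraries of a group came from separate cultures, so each p measures only the spread between these samples.

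Yolk protein is made in the intestine of the hermaphrodite, secreted into the body cavity and taken into oocytes by the receptor RME-2. The proteins are related to vertebrate vitellogenin and to the apolipoprotein of low-density lipoprotein particles. Their genes are switched on as the animal passes out of larval life, and in the adult their transcripts are among the most abundant of the intestine. The genes vit-1 to vit-5 encode the large yolk polypeptides, and vit-6 encodes a precursor that is cut into a pair of smaller ones.

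In the WBcel235 annotation, 5 of the genes lie on the X chromosome and vit-6 lies on chromosome IV. The gene vit-1 (K09F5.2) spans X:7727889-7733168 on the plus strand and vit-2 (C42D8.2) spans X:5101042-5106169 on the plus strand, each with 5 exons. Next to each other on the minus strand lie vit-4 (F59D8.2) at X:3558769-3563965 and vit-3 (F59D8.1) at X:3567355-3572549, each with 6 exons. These neighbours are 3389 bases apart with 0 protein-coding genes between them. The gene vit-5 (C04F6.1), at X:3403471-3408603 on the plus strand, lies 150165 bases from vit-4, with 21 protein-coding genes between. On chromosome IV, vit-6 (K07H8.6) spans IV:8261157-8266459 on the plus strand with 5 exons and 2 annotated isoforms. The exonic lengths are close, 4870 to 5088 bases. Because vit-3, vit-4 and vit-5 are very similar to each other in sequence, reads may have been shared among them, and the trio is also given as a sum.

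Library totals ran from 5141303 to 19261705 counts, and a count of 3 was worth 0.153 to 0.510 CPM, that is read counts scaled to library totals adjusted with TMM factors. The cox-5B transcript fell on cco-1 RNAi in each strain. It averaged 353 ± 84.9 CPM on RNAi and 697 ± 177 CPM on EV in met-2 (SD, n = 3 each; edgeR adjusted p = 0.0407), 278 ± 20.0 CPM on RNAi and 586 ± 127 CPM on EV in lin-65 (0.0321), and 296 ± 14.0 CPM on RNAi and 718 ± 52.1 CPM on EV in N2 (0.00827). The met-2 transcript averaged 18.8 ± 3.95 CPM in met-2 EV worms and 40.5 ± 2.95 CPM in N2 EV worms. The lin-65 transcript lay at 5.60 to 8.51 CPM in lin-65 EV worms and at 12.01 to 14.2 CPM in N2 EV worms. For lin-65 EV replicate 1 the strain field reads N2, whereas title and source read lin-65, and it was grouped as lin-65. Over all tested genes, met-2 RNAi replicate 1 and lin-65 EV replicate 1 lay farthest from the other libraries of their groups, with root mean square differences of 1.16 and 1.02 in log2 CPM.

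The summed level of the 6 vitellogenins differed widely between groups. In met-2 worms it was 69.3, 72.1 and 73.5 CPM on cco-1 RNAi, against 1694, 2481 and 1058 CPM on EV. In lin-65 worms it was 108, 391 and 228 CPM on cco-1 RNAi, against 549, 1602 and 1007 CPM on EV. In N2 worms it was 2785, 6725 and 2654 CPM on cco-1 RNAi, against 3834, 8521 and 6518 CPM on EV. The RNAi and EV libraries did not overlap in met-2 or in lin-65, whereas in N2 RNAi replicate 2 exceeded 2 of the 3 EV libraries. The EV mean was 24.4 times the RNAi mean in met-2, 4.35 times in lin-65 and 1.55 times in N2. In whole worms, fewer yolk-making cells and less RNA per cell cannot be told apart. The share of all counts that the family took lay between 0.00626% in met-2 RNAi replicate 1 and 0.786% in N2 EV replicate 2.

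**Figure D1:**
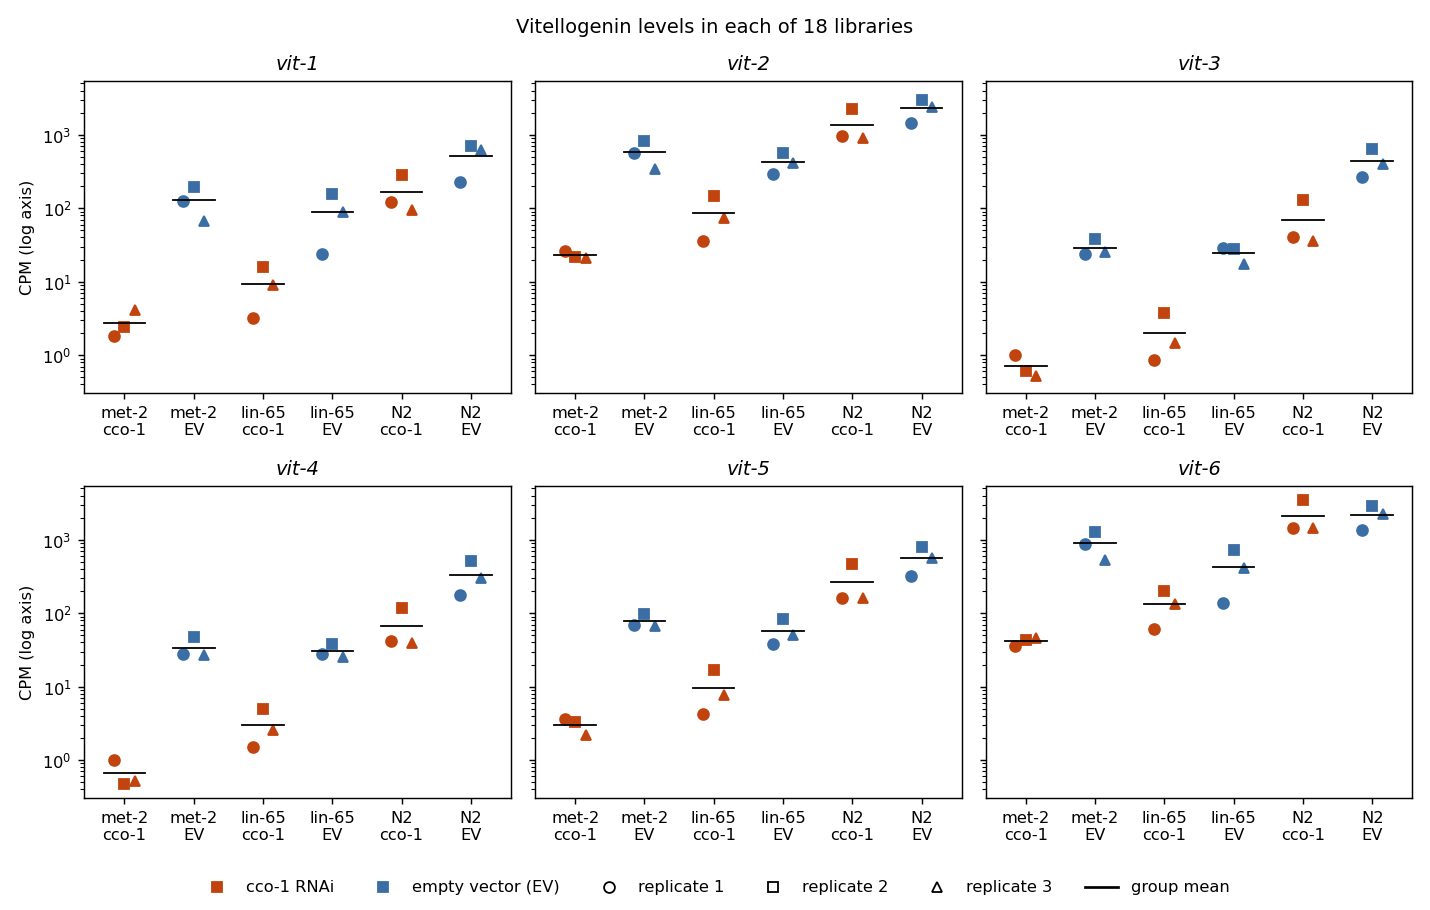
CPM of each vitellogenin in the 18 libraries on a log axis, with the groups along the x axis, a symbol for each replicate and a line at the group mean. In every panel the met-2 cco-1 RNAi libraries have the lowest mean (0.666 CPM for vit-4) and the N2 EV libraries the highest (2292 CPM for vit-2).

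By group mean, every member followed 1 order from low to high: met-2 RNAi, lin-65 RNAi, lin-65 EV, met-2 EV, N2 RNAi and N2 EV. Not all neighbours in that order were separated. The libraries of lin-65 EV and met-2 EV overlapped for 6 of 6 members, those of N2 RNAi and N2 EV for 4, and those of met-2 EV and N2 RNAi for 3. Met-2 RNAi and lin-65 RNAi overlapped for 2 members, and lin-65 RNAi and lin-65 EV for 1.

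All 6 yolk genes of met-2 worms fell on cco-1 RNAi against EV, where 0.563% of the 15110 tested genes were called lower and 0.543% higher. Their median log2 fold change was -4.98, beside 0.01 over all tested genes, and in the order of all tested genes from the lowest fold change they took places 3 to 18. The 3 comparisons of RNAi with EV share no library, but they share 1 estimate of the spread.

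The most abundant members, vit-2 and vit-6, kept a measurable transcript in met-2 worms on cco-1 RNAi. The vit-2 level was 26.4, 21.5 and 20.8 CPM on cco-1 RNAi, against 569.5, 827 and 337 CPM on EV. All RNAi libraries were far below all EV libraries (log2 fold change -4.65 ± 0.54 SE, edgeR adjusted p = 1.16e-04). The vit-6 level was 35.3, 43.8 and 45.3 CPM on cco-1 RNAi, against 877, 1276 and 536 CPM on EV, and again the groups lay apart (-4.43 ± 0.60, edgeR adjusted p = 5.32e-04). For vit-1 the libraries had 1.80, 2.38 and 4.11 CPM on cco-1 RNAi, against 126, 195 and 66.3 CPM on EV. Every RNAi library was below every EV library, and the change was -5.58 ± 0.78 (edgeR adjusted p = 7.69e-04).

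The similar genes vit-3, vit-4 and vit-5 also fell in met-2 worms. The vit-3 level was 1.01, 0.613 and 0.514 CPM on cco-1 RNAi, from counts of 14, 9 and 4, against 23.9, 38.01 and 25.6 CPM on EV. Next to it, vit-4 had 1.01, 0.477 and 0.514 CPM on cco-1 RNAi, from counts of 14, 7 and 4, against 28.3, 47.1 and 26.7 CPM on EV. Both genes were close to the value of 3 counts on RNAi, so the size of their change is imprecise (-5.30 ± 0.62 for vit-3 and -5.62 ± 0.60 for vit-4, edgeR adjusted p = 1.29e-04 and 7.43e-05). The vit-5 level was 3.68, 3.27 and 2.18 CPM on cco-1 RNAi, against 69.8, 97.5 and 65.99 CPM on EV (-4.65 ± 0.56, edgeR adjusted p = 1.65e-04). For no member did RNAi and EV libraries overlap, as for 5.98% of all genes with RNAi lower. Summed into 1 feature, the trio changed by -4.98 ± 0.57 (edgeR adjusted p = 1.08e-04). Without both libraries that stood apart, 6 of 6 members were called and the changes were -4.36 to -6.12.

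In lin-65 worms 5 of 6 members fell on cco-1 RNAi, where 0.443% of tested genes were called lower and 0.271% higher. The median log2 fold change of the 6 was -2.88, beside -0.02 over all tested genes. The vit-1 level was 3.23, 15.8 and 9.14 CPM on cco-1 RNAi, against 23.5, 156 and 87.9 CPM on EV. All 3 RNAi libraries were below all EV libraries, though EV replicate 1 was low (-3.21 ± 0.69, edgeR adjusted p = 0.0359). The vit-2 level was 35.9, 147 and 74.6 CPM on cco-1 RNAi, against 293, 564 and 411 CPM on EV (-2.30 ± 0.48, edgeR adjusted p = 0.0322).

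The trio of similar genes also fell in lin-65. The vit-3 level was 0.850, 3.79 and 1.45 CPM on cco-1 RNAi, against 28.4, 27.6 and 17.3 CPM on EV (-3.51 ± 0.55, edgeR adjusted p = 0.00357). The vit-4 level was 1.53, 4.90 and 2.56 CPM on cco-1 RNAi, against 28.0, 38.1 and 25.6 CPM on EV (-3.29 ± 0.51, edgeR adjusted p = 0.00348). The vit-5 level was 4.25, 16.9 and 7.80 CPM on cco-1 RNAi, against 37.6, 82.8 and 51.2 CPM on EV (-2.54 ± 0.51, edgeR adjusted p = 0.0218). For none of these 3 genes did the libraries overlap, nor for vit-1 and vit-2, where 8.5% of all genes were separated with RNAi lower, and the summed trio changed by -2.92 ± 0.51 (edgeR adjusted p = 0.00877).

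The exception in lin-65 was vit-6, with 61.9, 202 and 132 CPM on cco-1 RNAi, against 138, 733 and 414 CPM on EV. Here RNAi replicate 2 lay above EV replicate 1, and the change of -1.70 ± 0.53 did not pass the test (edgeR adjusted p = 0.200). Without both libraries that stood apart, of which EV replicate 1 is 1, the vit-6 change was -2.13 and passed (edgeR adjusted p = 0.0343), so that 6 of 6 members were called. Fitted on the lin-65 libraries alone, only vit-4 was called (edgeR adjusted p = 0.0288), and without lin-65 RNAi replicate 3 the count was 1, without EV replicate 2 or RNAi replicate 1 it was 2, and without EV replicate 3 or met-2 EV replicate 1 it was 3.

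In N2 worms the members divided. The genes vit-3 and vit-4 fell on cco-1 RNAi, 2 of 6 members, where 0.298% of tested genes were called lower and 0.543% higher. The vit-3 level was 40.5, 129.8 and 36.1 CPM on cco-1 RNAi, against 263, 637 and 405 CPM on EV. The vit-4 level was 41.4, 118 and 38.7 CPM on cco-1 RNAi, against 178, 507 and 303 CPM on EV. In both, and in 18.1% of all genes, every RNAi library lay below every EV library (-2.67 ± 0.50 and -2.32 ± 0.47, edgeR adjusted p = 0.0130 and 0.0213).

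The other members of N2 overlapped between RNAi and EV. The vit-1 level was 123, 283 and 95.2 CPM on cco-1 RNAi, against 229, 708 and 629 CPM on EV (-1.64 ± 0.64, edgeR adjusted p = 0.213). The vit-5 level was 159, 468 and 164 CPM on cco-1 RNAi, against 324, 789 and 571 CPM on EV (-1.09 ± 0.47, edgeR adjusted p = 0.248). The vit-2 level was 954, 2264 and 895 CPM on cco-1 RNAi, against 1469, 3023 and 2385 CPM on EV (-0.74 ± 0.46, edgeR adjusted p = 0.391). In each of these 3 genes, RNAi replicate 2 reached into the range of the EV libraries. The vit-6 level was 1467, 3462 and 1425 CPM on cco-1 RNAi, against 1371, 2858 and 2225 CPM on EV. Its groups overlapped throughout, and the highest vit-6 library of the series was N2 RNAi replicate 2 (-0.02 ± 0.52, edgeR adjusted p = 0.985).

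N2 libraries of the same replicate number deviated together over all genes, with correlations of 0.126, 0.357 and 0.285. Set side by side by number, vit-1 to vit-5 were each lower on cco-1 RNAi in 3 of 3 pairs and vit-6 in 1 of 3. At least 18.1% of all genes were lower in 3 of 3 pairs, since that share was fully separated with RNAi lower. A fit of the 6 N2 libraries alone with the replicate number as a block, chosen after seeing the data, called 5 of 6 members lower. The share of all genes that this fit called is not given here, so the count has no background beside it. In that fit the change was -1.62 for vit-1, -0.80 for vit-2, -2.81 for vit-3, -2.37 for vit-4 and -1.17 for vit-5 (edgeR adjusted p = 0.00165, 0.00961, 1.76e-05, 2.36e-05 and 0.00139), whereas vit-6 stayed at -0.07 (0.807). With the block in the fit of all 18 libraries 2 members were called. The summed trio, at -1.74 ± 0.48, did not pass in N2 (edgeR adjusted p = 0.117). Without EV replicate 2, RNAi replicate 1 or RNAi replicate 3 of N2 no member was called, and without EV replicate 3 only 1 was.

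**Figure D2:**
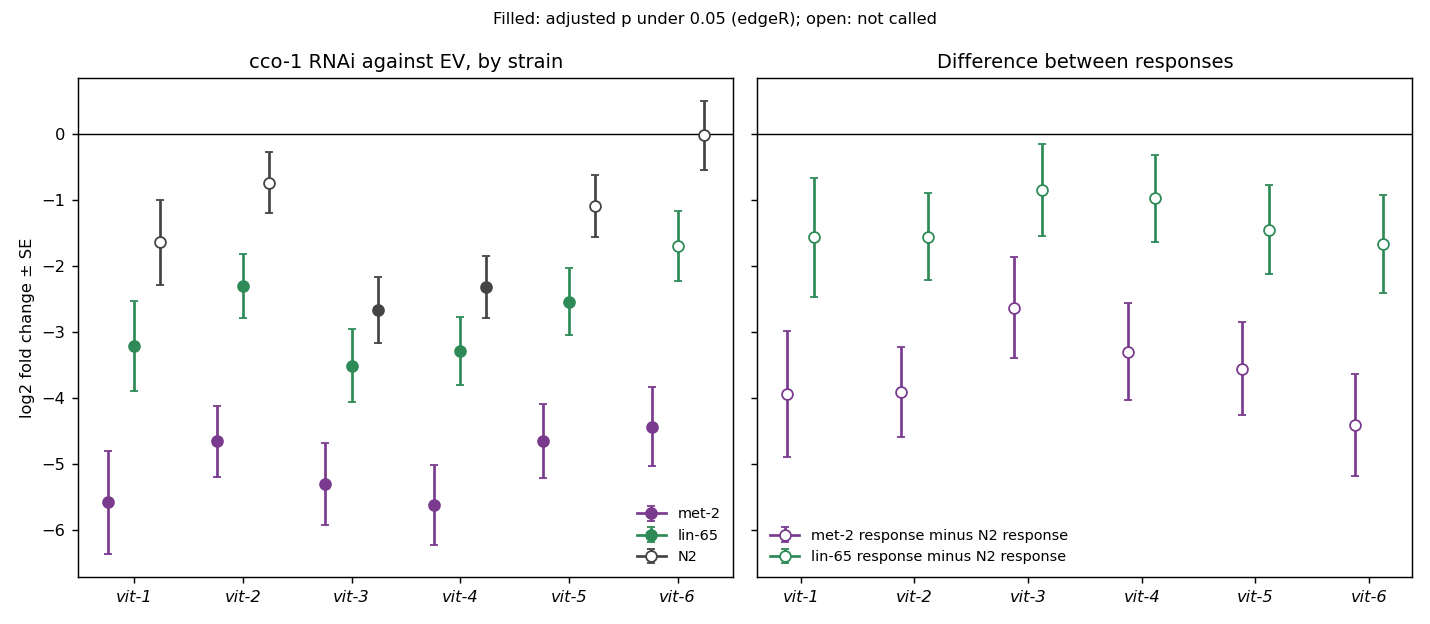
Log2 fold change of each vitellogenin, cco-1 RNAi against EV within met-2, lin-65 and N2 (left), and the difference of the met-2 and lin-65 responses from the N2 response (right), with bars of 1 SE; filled points passed the edgeR threshold. The met-2 points lie lowest for every gene, and all points on the right lie below 0 but are open.

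The responses of the strains were compared with each other by the difference of their log2 fold changes. For met-2 against N2 the differences were negative for all members, from -2.63 for vit-3 to -4.41 for vit-6. None passed the edgeR test, where 0 of the 15110 genes, 0%, were called: the adjusted p was 0.0620 for vit-2 and vit-6, 0.0912 for vit-5, 0.116 for vit-4, 0.158 for vit-1 and 0.242 for vit-3. At an unadjusted p under 0.05 there were 6 of 6 members. The DESeq2 Wald test and limma voom with library weights each called 5 of 6, all but vit-3, and fits without the 2 libraries that stood apart called vit-2, vit-5 and vit-6. For lin-65 against N2 the differences were -0.85 to -1.67, with an edgeR adjusted p of 0.999 for each and 3 of 6 members at an unadjusted p under 0.05. For met-2 against lin-65 they were -1.79 to -2.74, with an edgeR adjusted p of 0.432 for each and 6 of 6 members at an unadjusted p under 0.05. These 2 comparisons also had 0% of all genes called by edgeR. The share of all genes at an unadjusted p under 0.05 is not given here, nor the shares called by DESeq2 and voom. The counts of members at those levels therefore stand without a background and are only a description. For the summed trio the differences were -3.24 ± 0.69 for met-2 against N2, -1.18 ± 0.67 for lin-65 against N2 and -2.06 ± 0.69 for met-2 against lin-65 (edgeR adjusted p = 0.100, 0.999 and 0.432). Any pair of these differences shares the libraries of a strain.

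Between strains on cco-1 RNAi the vitellogenins were lower in both mutants. In met-2 against N2 on RNAi, 6 of 6 members fell, where 9.59% of tested genes were called lower and 11.2% higher. Their log2 fold changes ran from -5.67 ± 0.64 for vit-6 to -6.58 ± 0.62 for vit-4, fitted folds of 51.1 to 95.4 in the lower direction (edgeR adjusted p of 1.01e-04 or less). In lin-65 against N2 on RNAi, 6 of 6 members also fell, where 0.477% of tested genes were called lower and 0.635% higher. The changes ran from -3.99 ± 0.52 for vit-2 to -5.001 ± 0.58 for vit-3, with adjusted p of 0.00449 or less in edgeR. Both comparisons use the same N2 RNAi libraries. No member's libraries overlapped in either comparison, where 19.4% and 12.8% of all genes were separated with the mutant lower. Leaving out any single library left 6 of 6 members called in both. The summed trio changed by -6.47 ± 0.60 in met-2 and -4.74 ± 0.55 in lin-65 (edgeR adjusted p = 3.74e-06 and 9.42e-05).

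In met-2 against lin-65, both on cco-1 RNAi, 4 of 6 members were lower, where 13.1% of tested genes were called lower and 12% higher. They were vit-2 (-1.91 ± 0.48, edgeR adjusted p = 0.00859), vit-4 (-2.17 ± 0.61, 0.0148), vit-5 (-1.66 ± 0.52, 0.0272) and vit-6 (-1.67 ± 0.54, 0.0297). The genes vit-1 (-1.84 ± 0.71) and vit-3 (-1.53 ± 0.64) did not pass (edgeR adjusted p = 0.0663 and 0.0901). The summed trio did (-1.73 ± 0.51, edgeR adjusted p = 0.0198). The libraries of the 4 called members did not overlap, as for 20.2% of all genes with met-2 lower. The lin-65 libraries themselves spread 3.63-fold in the family sum, and without lin-65 RNAi replicate 2 no member was called, whereas without met-2 RNAi replicate 2 or 3 the count was 1 or 2.

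On EV the mutants were also lower than N2, with each member's libraries below those of N2 in both mutants. In lin-65 EV against N2 EV, 5 of 6 members fell, where 0.351% of tested genes were called lower and 1.07% higher. The largest change was that of vit-3, which averaged 24.4 CPM in lin-65 EV worms and 435 CPM in N2 EV worms (-4.16 ± 0.53, edgeR adjusted p = 2.82e-04). The changes were -3.43 ± 0.49 for vit-4, -3.29 ± 0.51 for vit-5, -2.44 ± 0.48 for vit-2 and -2.33 ± 0.54 for vit-6 (edgeR adjusted p = 7.92e-04, 0.00184, 0.0129 and 0.0398), and vit-1 did not pass (-2.55 ± 0.66, 0.0703). Without both libraries that stood apart, vit-6 did not pass either (-1.89, edgeR adjusted p = 0.0506). Libraries were separated with lin-65 lower for 6 of 6 members and 6% of all genes. Without lin-65 EV replicate 1 or 3, or N2 EV replicate 2, 3 members were called.

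In met-2 EV against N2 EV, 5 of 6 members fell, where 15.3% of tested genes were called lower and 15.3% higher. The gene vit-3 averaged 29.2 CPM in met-2 EV worms and 435 CPM in N2 EV worms (-3.90 ± 0.52, edgeR adjusted p = 1.46e-04). The others called were vit-4 (-3.27 ± 0.49), vit-5 (-2.85 ± 0.50), vit-1 (-2.02 ± 0.65) and vit-2 (-1.99 ± 0.48), with edgeR adjusted p of 0.0266 or less. Libraries were separated with met-2 lower for 6 of 6 members and 26.3% of all genes. The change of vit-6, -1.26 ± 0.53, did not pass (edgeR adjusted p = 0.0756), and without both libraries that stood apart it did (-1.25, 0.0235). In both mutants the median of the 6 members was below that of all genes (-2.92 beside 0.06 for lin-65, -2.43 beside 0.04 for met-2), and both used the same N2 EV libraries. The summed trio changed by -3.56 ± 0.52 in lin-65 and -3.23 ± 0.51 in met-2 (edgeR adjusted p = 9.32e-04 and 4.50e-04).

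Between the mutants on EV, met-2 against lin-65, 0 of 6 members passed edgeR's test, where 11.7% of tested genes were called higher and 17.1% lower. The differences were 0.16 ± 0.45 for vit-4 to 1.06 ± 0.52 for vit-6, with edgeR adjusted p of 0.811 and 0.133, and 0 members had an unadjusted p under 0.05. The summed trio did not pass either (0.33 ± 0.47, edgeR adjusted p = 0.611). DESeq2 called 0 as well, and limma voom with library weights called vit-6. So the order of the mutants on EV, with met-2 above lin-65 in the mean of every member, was within the spread of the libraries. On RNAi met-2 was the lower in the mean of every member, with 4 of 6 called, but 0 without lin-65 RNAi replicate 2. The difference between the met-2 and lin-65 responses passed for no member (edgeR adjusted p = 0.432 for each).

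**Figure D3:**
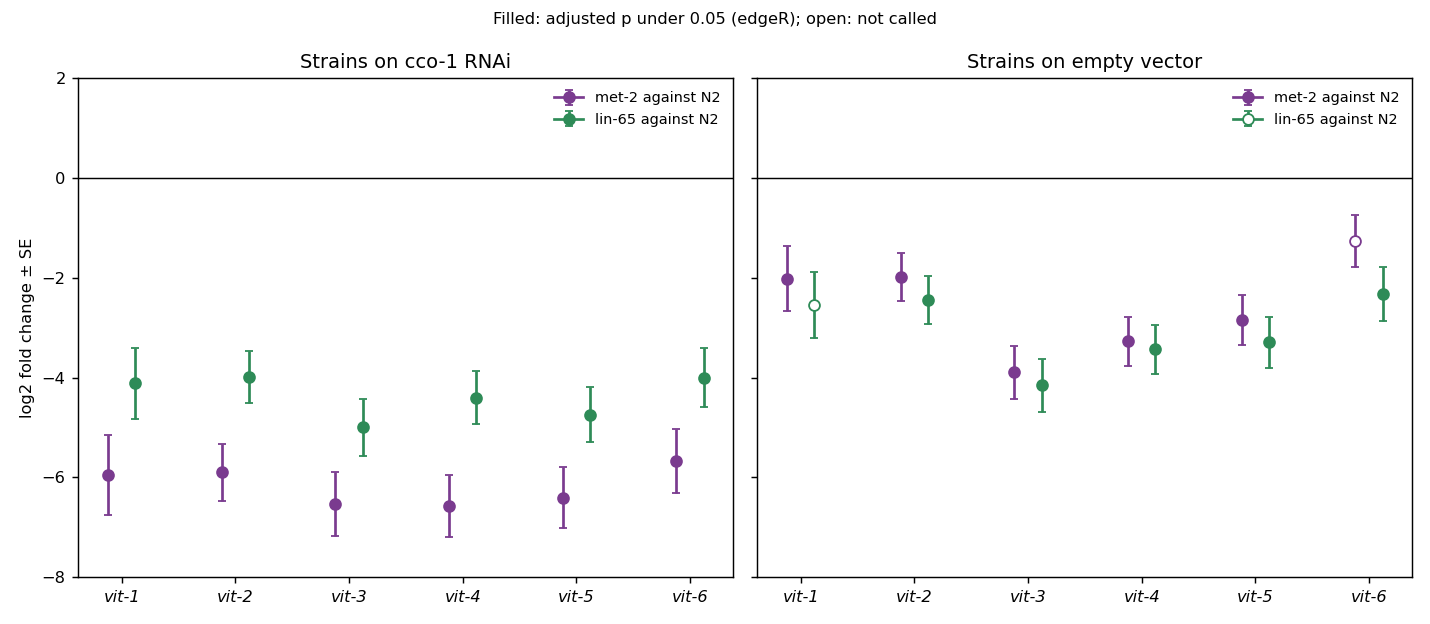
Log2 fold change of each vitellogenin in met-2 and lin-65 against N2, on cco-1 RNAi (left) and on empty vector (right), with bars of 1 SE; filled points passed the edgeR threshold. On RNAi the met-2 points lie between -5.67 and -6.58 and the lin-65 points between -3.99 and -5.001, and on empty vector the points of both mutants lie close together.

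The make-up of the family differed between groups. Per kilobase of annotated exon, vit-2 and vit-6 were the most abundant members in every group. In N2 the level of vit-6 was 418 ± 230 CPM per kilobase on cco-1 RNAi and 425 ± 147 on EV, and that of vit-2 was 278 ± 157 and 465 ± 158 (SD, n = 3 each). By this level vit-6 ranked 324 of 20074 matched genes on RNAi and 384 on EV in N2 worms. In met-2 worms on RNAi vit-6 was at 8.19 ± 1.07 CPM per kilobase, rank 7649, and vit-4 was at 0.135 ± 0.0602, rank 16385.

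The share of vit-6 among all vitellogenin counts was 57.8 ± 5.94% on cco-1 RNAi and 51.3 ± 0.557% on EV in met-2, 55.8 ± 3.44% and 37.4 ± 10.8% in lin-65, and 52.6 ± 1.11% and 34.5 ± 1.15% in N2. The shares of vit-6 did not overlap between treatments in N2 or in lin-65, and they overlapped in met-2. In N2 the shares of each other member did not overlap between treatments either. The share of vit-3 was 1.58 ± 0.305% on RNAi and 6.86 ± 0.629% on EV in N2, and that of vit-4 was 1.57 ± 0.166% and 5.08 ± 0.748%. Those of vit-1 were 4.07 ± 0.431% and 7.97 ± 1.87%, those of vit-5 6.28 ± 0.631% and 8.82 ± 0.407%, and those of vit-2 33.9 ± 0.315% and 36.8 ± 1.43%. The shares are not independent of each other, since they add to the whole, and were not tested.

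**Figure D4:**
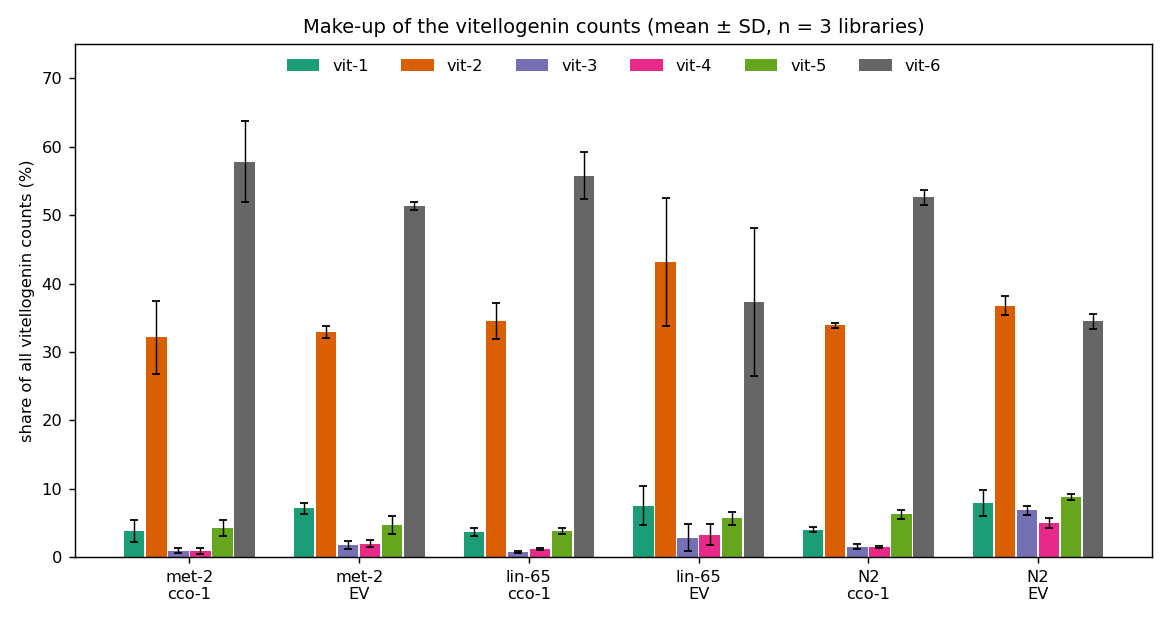
Share of each vitellogenin in the summed vitellogenin counts by group, as mean and SD of 3 libraries. The vit-6 bar stands at 52.6% on cco-1 RNAi and 34.5% on empty vector in N2, and at 50.7% or more in every met-2 library.

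In N2 the ratio of vit-6 to vit-2 counts varied less between libraries of a group than either gene did. It lay between 1.53 and 1.59 on cco-1 RNAi and between 0.933 and 0.946 on EV, while the family sum spread over 2.53-fold and 2.22-fold among the same libraries. The ratio was 1.34 to 2.18 on RNAi and 1.54 to 1.59 on EV in met-2. In lin-65 it was 1.38 to 1.77 on RNAi and 0.471 to 1.30 on EV, with the lowest value in EV replicate 1. The met-2 EV libraries thus lay in the range of the N2 RNAi libraries and above all N2 EV libraries. This ratio was picked after its values were seen and was not tested.

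The spread between libraries was shared by the members. In N2 RNAi, lin-65 RNAi, N2 EV, lin-65 EV and met-2 EV, replicate 2 was above the group mean in 6 of 6 members, by 0.98, 0.95, 0.58, 0.65 and 0.54 log2 units on average. In N2 EV replicate 1, N2 RNAi replicates 1 and 3, lin-65 RNAi replicate 1 and met-2 EV replicate 3, 0 of 6 members were above it. The met-2 RNAi group showed no such pattern, and its family sum was the most even of the 6 groups, at 71.6 ± 2.14 CPM.

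No gene on a list of yolk handling after transcription passed the test on cco-1 RNAi. The list of 13 holds dsc-4, the microsomal triglyceride transfer protein that loads lipid onto lipoproteins, rme-2, and endocytosis genes such as rme-1, rme-8 and rab-5. By edgeR 0 of the 13 were called in any strain on RNAi against EV, and the list's medians were -0.25 in met-2, 0.17 in lin-65 and 0.09 in N2. In those 3 comparisons the medians over all tested genes were 0.01, -0.02 and -0.01. There 0.271% to 0.563% of all tested genes were called in each direction, so 0 of 13 lies near that share. This count does not show that the 13 genes were unchanged. In met-2 on RNAi the list summed to 973 CPM in replicate 1, which stood apart, and to 1609 and 1803 CPM in replicates 2 and 3. Levels of dsc-4 were 330 ± 110 CPM on RNAi and 368 ± 62.8 CPM on EV in met-2, 131 ± 15.7 CPM on RNAi and 221 ± 17.4 CPM on EV in lin-65, and 135 ± 10.0 CPM on RNAi and 148 ± 35.1 CPM on EV in N2. Against N2, dsc-4 was higher in met-2 both on RNAi (1.29 ± 0.24, edgeR adjusted p = 0.00143) and on EV (1.32 ± 0.24, 0.00127), opposite in sign to the vitellogenins. The receptor gene rme-2 averaged 45.8 ± 24.7 CPM in met-2 on RNAi and 134 ± 15.4 CPM in N2 on RNAi (-1.54 ± 0.38, edgeR adjusted p = 0.00889). In lin-65 neither gene passed the test against N2 (edgeR adjusted p of 0.381 or more).

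Of 18 known or proposed regulators of yolk gene transcription, 0 passed edgeR's test on cco-1 RNAi against EV in any strain. In those comparisons 0.271% to 0.563% of all tested genes were called in each direction, so 0 of 18 lies near that share. It does not show that these genes were unchanged. In N2, alg-1 lay at 14.8 to 19.6 CPM on RNAi and 4.54 to 6.38 CPM on EV. There nhr-23 lay at 22.3 to 30.0 and 6.97 to 9.82 CPM, whereas ceh-60 and pqm-1, among others, had lower means on RNAi. The genes alg-1 and nhr-23 were picked here after their values were seen. The list's medians were -0.26 in met-2, 0.60 in lin-65 and 0.74 in N2, beside the medians of all genes given above. Because the list holds activators such as unc-62 and repressors such as mab-3, its median gives no net direction of regulation. In met-2 the list summed to 147, 495 and 575 CPM on RNAi and to 533, 507 and 394 CPM on EV. The lowest of these sums was that of RNAi replicate 1, a library that stood apart. The homeodomain genes ceh-60 and unc-62 encode partners that activate vitellogenins in the intestine. Levels of ceh-60 were 3.32 ± 0.837 CPM on RNAi and 5.31 ± 0.152 CPM on EV in met-2, 4.79 ± 1.06 CPM on RNAi and 5.98 ± 0.777 CPM on EV in lin-65, and 6.85 ± 1.13 CPM on RNAi and 9.21 ± 1.53 CPM on EV in N2. It was lower in met-2 than in N2 both on RNAi (-1.02 ± 0.26, edgeR adjusted p = 0.00995) and on EV (-0.79 ± 0.25, 0.0265), and in lin-65 the changes were -0.49 and -0.62 without passing (0.573 and 0.371). Levels of unc-62 were 17.2 ± 12.05 CPM on RNAi and 24.5 ± 4.26 CPM on EV in met-2, 12.5 ± 1.21 CPM on RNAi and 8.09 ± 5.58 CPM on EV in lin-65, and 22.2 ± 1.62 CPM on RNAi and 13.4 ± 1.44 CPM on EV in N2. Its changes against N2 did not pass, at -0.38 in met-2 on RNAi and 0.87 on EV, and at -0.83 and -0.71 in lin-65 (edgeR adjusted p of 0.205 or more).

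The zinc finger gene pqm-1 was even across groups, with means of 29.7 to 39.8 CPM and no comparison passing (edgeR adjusted p of 0.312 or more). In met-2 EV against N2 EV, 15.3% of all tested genes were called higher, and 7 of the 18 regulators were. Among these 7 were alg-1, an Argonaute of the microRNA pathway (2.47 ± 0.58, edgeR adjusted p = 0.00555), and nhr-23, a nuclear receptor of the molting cycle (1.82 ± 0.50, 0.0127). Their part in the vitellogenin levels was not tested.

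Markers of the intestine, the tissue that makes yolk, were present in every library. Summed over 12 genes, they came to 10111 to 16604 CPM on RNAi and 11838 to 13572 CPM on EV in met-2, 6102 to 6773 and 6372 to 9268 CPM in lin-65, and 6787 to 7414 and 6597 to 8834 CPM in N2. None of the 12 was at 0 in a whole group. Every met-2 sum was above every N2 and lin-65 sum, and asp-1, an aspartic protease gene, made up much of it, at 8511 ± 2212 CPM on RNAi in met-2 and 2766 ± 209 CPM on RNAi in N2. In met-2 against N2, 3 of 12 genes were higher on RNAi (asp-1, cpr-1 and vha-6, median 0.22) and 5 of 12 on EV (median 0.59). Of all tested genes, 11.2% were called higher there on RNAi and 15.3% on EV. On cco-1 RNAi against EV, 0.563% of all tested genes were called lower in met-2, 0.443% in lin-65 and 0.298% in N2. Of the 12 intestine genes, 0 passed in met-2 (median -0.31). In lin-65, 2 fell, the protease gene cpr-1 and ifb-2, an intestinal intermediate filament (median -0.31), and in N2 1 fell, cpr-1, at 299 ± 73.9 CPM on RNAi and 736 ± 196 CPM on EV (median 0.05, edgeR adjusted p = 0.0499).

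Genes of the adult cuticle mark the passage out of L4. On cco-1 RNAi against EV, 0.271% to 0.563% of all tested genes were called in each direction. Of 5 adult cuticle genes, 1 passed the test in met-2 and 0 in lin-65 and N2. Summed over col-7, col-19, col-62, bli-1 and bli-2 they came to 703 to 1296 CPM on RNAi and 1187 to 1598 CPM on EV in met-2, 1189 to 1381 and 1599 to 2251 CPM in lin-65, and 1585 to 1767 and 2064 to 2319 CPM in N2. The sums did not overlap in lin-65 or N2, where 8.5% and 18.1% of all single genes were separated with RNAi lower. A sum follows its most abundant genes, in N2 col-19 among them, so it does not stand for each gene of the list. In met-2 they overlapped only through RNAi replicate 1 (1296 CPM), a library that stood apart, whereas RNAi replicates 2 and 3 (703 and 735 CPM) lay below every EV library. The collagen gene col-7 fell on RNAi in met-2, averaging 2.52 ± 0.735 CPM on RNAi and 19.6 ± 11.3 CPM on EV (-2.93 ± 0.61, edgeR adjusted p = 0.0195), and was higher in N2 on RNAi by 0.19 without passing (list medians -1.56 in met-2, -0.73 in lin-65, -0.06 in N2). Levels of col-19, the collagen gene used as an adult marker, were 159 ± 111 CPM on RNAi and 471 ± 89.1 CPM on EV in met-2, 382 ± 170 CPM on RNAi and 938 ± 221 CPM on EV in lin-65, and 733 ± 362 CPM on RNAi and 1193 ± 396 CPM on EV in N2. Against N2, 3 of 5 were lower in met-2 on RNAi (col-7, col-19 and col-62) and 1, col-19, on EV, whereas 0 of 5 passed in lin-65 on either. Of all tested genes, 9.59% were called lower in met-2 on RNAi and 15.3% on EV, so 1 of 5 on EV lies near that share. In lin-65 the shares were 0.477% on RNAi and 0.351% on EV, so 0 of 5 does too. The part of the animals' exact stage in the vitellogenin levels was not tested.

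**Figure D5:**
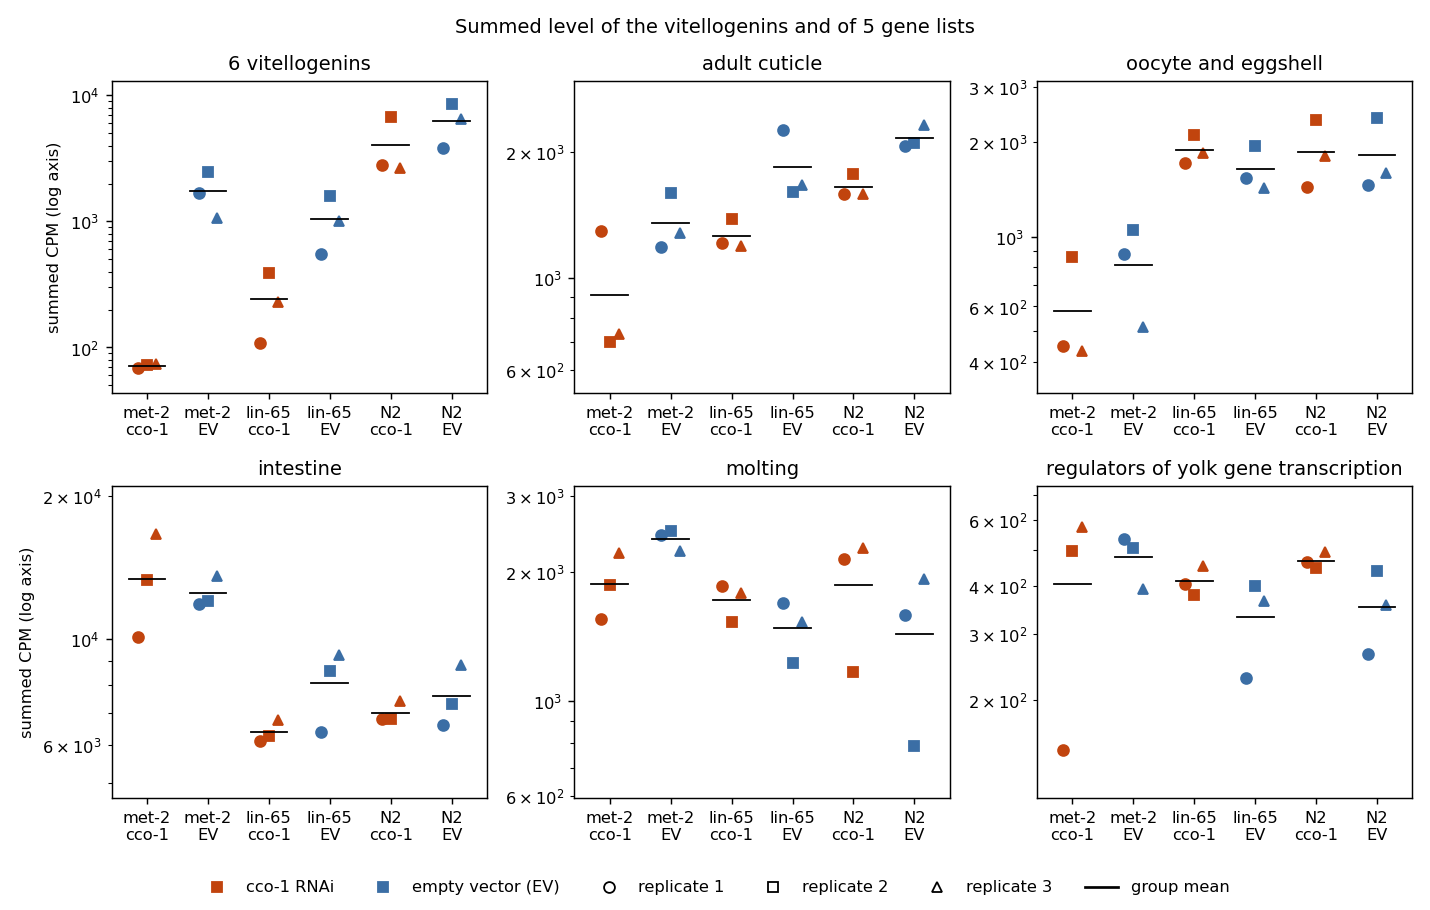
Summed CPM per library, on log axes that differ between panels, of the 6 vitellogenins and of 5 gene lists, by group, with a symbol for each replicate and a line at the group mean. The vitellogenin means run from 71.6 to 6291 CPM, and in each other panel all libraries lie within a far narrower range, with the met-2 libraries highest for intestine and lowest for oocyte and eggshell genes.

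Genes of the oocyte and eggshell, whose cells take up yolk, separated the strains in another way. None of the 12 passed edgeR's test on cco-1 RNAi against EV in any strain, with medians of -0.40 in met-2, 0.37 in lin-65 and 0.01 in N2. There 0.271% to 0.563% of all tested genes were called in each direction, so 0 of 12 lies near that share. Against N2, 9.59% of all tested genes were called lower in met-2 on RNAi and 15.3% on EV, and 0.477% and 0.351% in lin-65. Of the oocyte and eggshell genes, 12 of 12 were lower in met-2 on RNAi (median -1.76) and 6 of 12 on EV (median -1.22). In lin-65, 0 of 12 passed on RNAi (median 0.08) or EV (median -0.21), near the shares of all genes. Their sum was 434 to 865 CPM on RNAi and 516 to 1050 CPM on EV in met-2, 1722 to 2104 and 1428 to 1946 CPM in lin-65, and 1442 to 2346 and 1461 to 2394 CPM in N2. The lowest lin-65 sum, 1428 CPM in EV replicate 3, was just below the lowest N2 sum of 1442 CPM, and the other lin-65 sums lay within the range of the N2 libraries. The part of either gene group in the other was not tested.

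The genes most like the vitellogenins in profile were sought among 8201 genes over the 18 libraries, by the root mean square difference in centred log2 CPM from the mean of the members. The nearest were ule-5 (0.917), col-135 (1.03), ule-1 (1.25), ule-3 (1.31), col-119 (1.34), col-143 (1.35), col-7 (1.42) and ttr-42 (1.53), where the profile itself had an SD of 2.67. The members lay 0.274 (vit-5) to 0.844 (vit-6) from the mean of the other members. Of the 8, 3 carry the name ule, given for expression in the lumen of the uterus, 4 are col genes for cuticle collagens, and ttr-42 is a transthyretin-related gene. The level of ule-5 was 1.64 ± 0.346 CPM on RNAi and 38.8 ± 19.5 CPM on EV in met-2, 8.52 ± 6.39 CPM on RNAi and 64.4 ± 27.2 CPM on EV in lin-65, and 58.1 ± 21.5 CPM on RNAi and 88.9 ± 19.7 CPM on EV in N2. Its changes on RNAi were -4.53 ± 0.55 in met-2, -2.90 ± 0.49 in lin-65 and -0.62 ± 0.45 in N2 (edgeR adjusted p = 1.65e-04, 0.00626 and 0.456). The collagen gene col-119 averaged 76.7 ± 45.0 CPM on RNAi and 574 ± 167 CPM on EV in met-2, and 675 ± 371 CPM on RNAi and 1108 ± 522 CPM on EV in N2. These genes were picked by their likeness over the same libraries, so their changes are a description and lend nothing to those of the members.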

How the data were processed

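The 18 libraries hold polyA RNA of whole L4 worms, isolated with oligo-dT and prepared by the ScriptSeq v2 kit of Epicentre, per the labels' protocols. Bowtie 0.12.7 and DESeq are listed, without what each did, per the submitters' processing notes. Not given in the sources used here: build, counter, strand setting and read length. What the authors deposited are unnormalized read counts, a column for each library and a row for each gene model. Of 20505 models, 20074 were matched by sequence name to the WBcel235 annotation, and the other 431 held 0.148% of counts. How reads shared by similar genes were counted is not known, and without a strand setting reads from a gene and an overlapping antisense gene cannot be told apart.

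Genes were filtered with filterByExpr, which left 15110. All adjusted p-values are from edgeR 4.0.16 in R 4.3.3 (quasi-likelihood test, robust, two-sided, TMM factors, group means of 18 libraries, Benjamini-Hochberg over all tested genes, threshold 0.05), except where DESeq2 1.42.0 or limma 3.58.1 is named. SE is the log2 fold change over the root of F, and CPM from TMM-scaled totals. There were 12 comparisons. The fit was tested on simulated data. Counts of 2 replicates differed far beyond counting noise in every pair (lowest chi-square over its degrees of freedom 10.4), so no library was taken as a copy of another. Libraries of the same number were set side by side as pairs only in N2. There every same-number correlation of deviations over all genes was above 0.1. Alternative fits with a replicate block also used the numbers in lin-65 and met-2, where these correlations were -0.06 to 0.20 and -0.28 to 0.21. The labels do not state that the numbers pair libraries. Genes named are the members, the 3 targeted genes, up to 4 called genes per list and comparison by smallest p, 5 fixed yolk genes (rme-2, dsc-4, unc-62, ceh-60 and pqm-1) and the 8 nearest profiles. Members, lists and tests were chosen with earlier results of these data known, and lists are described by counts and medians without a test. Sequences are not used here.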

Additional observations from a re-analysis of the deposited data

How the results depend on the processing

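Only the met-2 response and both contrasts of mutants with N2 on cco-1 RNAi gave 6 of 6 members under every alternative. For the N2 response, 2 members in the main analysis, the count was 0 with vit-3, vit-4 and vit-5 summed, 4 with voom weights and 5 with the replicate block in the N2 libraries alone, and 0 to 2 without 1 library. The lin-65 response had 5, 1 in lin-65 libraries alone and 1 to 5 without 1 library. The difference of the met-2 and N2 responses had 0, but 3 without a filter, 5 with the replicate block in all libraries, 3 with the replicate block within strain, 3 in the 16 libraries without both that stood apart, 2 in met-2 and N2 libraries alone, 5 by DESeq2, 5 by voom, and 0 to 3 without 1 library. That of met-2 and lin-65 responses had 0, and 2 by voom. Between mutants on EV, 0 became 1 (vit-6) with the replicate block and 1 with voom, and 0 to 1 without 1 library. Counts without 1 library were 3 to 6 for lin-65 EV against N2 EV, 4 to 6 for met-2 EV against N2 EV and 0 to 5 for met-2 RNAi against lin-65 RNAi. The family sum of met-2 RNAi was 66.9 CPM with plain totals, beside 71.6. Signs turned for vit-6 in N2, which was 0.24 and 0.0027 without EV replicate 2 or 3, 0.18 and 0.20 without RNAi replicate 1 or 3 and -0.57 without RNAi replicate 2, for the lin-65 and N2 response difference of vit-3 (0.19 by voom), and for vit-4 in met-2 EV against lin-65 EV (-0.15 without met-2 EV replicate 2, at most 0.35 without another library). No value with a turned sign passed the test. The replicate block changed no other count of members by over 1.5 times. Blocks that span all strains treat equal numbers as belonging together in met-2 too, where RNAi and EV libraries of the same number had correlations of -0.28 to 0.21. Fits without 1 library of a group assume that the other libraries stand for its spread. The shares of all genes called under the alternatives are not given here, so these counts of members have no background beside them. The causes of these changes were not tested. Depth limits vit-3 and vit-4 in met-2 RNAi, where counts were 4 to 14.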

Other observations

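Other tissues were measured in the same libraries, as values beside those of the vitellogenins. On cco-1 RNAi against EV, 0 members of the sperm, molting, hypodermis, body wall muscle, pharynx and male lists passed edgeR's test in any strain. There 0.271% to 0.563% of all tested genes were called in each direction, so these counts of 0 lie near that share. In met-2 EV against N2 EV, where 15.3% of all tested genes were called lower and 15.3% higher, 5 of 8 sperm genes were lower (median -1.21), among them the phosphatase gene gsp-4 (-1.83 ± 0.46, edgeR adjusted p = 0.00833), and 5 of 12 molting genes were higher (median 0.66), led by fbn-1 (2.75 ± 0.44, edgeR adjusted p = 4.77e-04). In the same comparison dpy-7 was higher among 5 hypodermis genes, myo-1 and myo-2 among 3 pharynx genes, and among 4 muscle genes unc-15 was higher and unc-22 lower. On cco-1 RNAi in met-2 against N2, where 9.59% of all tested genes were called lower and 11.2% higher, 2 sperm genes and unc-22 were lower, and fbn-1 and myo-2 were higher. In lin-65 against N2, 0 members of these 6 lists passed on RNAi or EV. Of all tested genes, 0.477% were called lower and 0.635% higher on RNAi, and 0.351% and 1.07% on EV. Counts of 0 in such short lists lie near those shares and do not show that these tissues were unchanged. The male list holds mab-3, which represses yolk genes in males, at 8.04 ± 5.92 CPM on RNAi and 11.7 ± 2.46 CPM on EV in met-2, and at 8.38 ± 2.85 and 4.90 ± 2.37 CPM in N2, with no change passing against N2. Its other member, her-1, did not pass the filter on low counts. The summed molting genes came to 1548 to 2209 CPM on RNAi and 2229 to 2489 CPM on EV in met-2, and to 1167 to 2270 and 788 to 1922 CPM in N2.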
